A study of Mus musculus with 3 samples.

Results

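The probes described here were bright in both macrophage populations of mouse skin wounds and much dimmer in wound neutrophils. They were selected on the deposited log2 signals themselves: a value above 0 in Ly6C+ and in CX3CR1+ macrophages, and each of these values at least 5-fold above the value in neutrophils. On this scale 0 is close to the 75th percentile of each array, so a value above 0 places a probe above about 75% of its array. The rule chose 1140 of 55681 probes (2.05%). Each probe is a short DNA strand fixed to the array that binds one labelled RNA or several, and its name starts with A_.

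Each cell population was measured on 1 array, with total RNA extracted and Cy3-labelled cRNA hybridised. C57/B6 mice 8 weeks old were wounded in the skin, and 3 days later the cells were sorted. Inflammatory macrophages were taken as Ly6C+/F4/80+. The macrophages resident in the tissue were taken as CX3CR1+/F4/80+, and neutrophils as Ly6G+/F4/80-. No transgene or treatment other than the wound is given for these samples. The RNA came from several mice, and whether it was pooled is not stated in the sources. The arrays served to look for macrophage products that act on hair follicle stem cells, with neutrophils as the other abundant phagocyte of the early wound. With 1 array per population no difference could be set against a spread between replicates, so there is no test here, and the small number of arrays sets the precision.

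Macrophages of a wound have different origins. Ly6C+ cells derive from blood monocytes that enter through the chemokine receptor CCR2, whereas CX3CR1+ cells largely live in the skin before injury. F4/80, a surface protein of mature macrophages, was used to gate both. Neutrophils carry Ly6G, arrive first, and share myeloid ancestry with monocytes. They are short-lived and act largely with granule proteins made before they leave the bone marrow, whereas macrophages keep clearing debris and sending signals while the wound heals. Neither the deposited table nor the annotation used here pairs the probes with genes or gives their sequences. Each probe is therefore named by its ID only, and the sort labels could not be set against defining marker genes such as those of F4/80 or Ly6G. The paper lists Cd3e, Cd3g and Cd8a, grouped under T cell receptor signalling, as lower in Ly6C+ than in CX3CR1+ macrophages. Others of that group, such as Tnf and Fos, are listed as higher. The purity of the sorts was not tested here.

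The arrays had different floors. The lowest probe value was -8.78 for Ly6C+ macrophages, -8.47 for CX3CR1+ macrophages and -7.44 for neutrophils, and the medians over all probes were -4.20, -3.78 and -3.29 in the same order. The 10 E1A control features, to which a spiked-in RNA is meant to bind, had medians of 1.651, 1.503 and 2.759. The neutrophil array thus lay above the macrophage arrays at its floor, at its median and in these controls while matched to them at the 75th percentile. The part of this scaling in the differences below was not tested beyond the alternatives given.

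The probes were a small share of those bright in both macrophages. Both arrays exceeded 0 for 13351 probes, of which 1140 (8.54%) also stood at least 5-fold above neutrophils in each macrophage. Without regard to brightness, 6.07% of all probes exceeded the neutrophil value by 5-fold or more in Ly6C+ macrophages. In CX3CR1+ macrophages 5.20% did so, and 4.73% did in both. The rule used these contrasts and the neutrophil array is common to both, so the 1140 probes are described against that background without a test. The other 12211 probes bright in both macrophages had a median log2 signal of 2.38 in Ly6C+ and 2.25 in CX3CR1+ macrophages, against 2.25 in neutrophils. At the median these others were thus about as bright in neutrophils as in the macrophages.

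Most of the shared macrophage probes were of moderate brightness. The signal depends on the sequence of a probe as well as on the amount of RNA, so levels of different probes are not an order of transcript abundance. In Ly6C+ macrophages the log2 signal ran from 0.02 to 5.20 with a median of 1.74 and quartiles of 1.03 and 2.62. In CX3CR1+ macrophages it ran from 0.00 to 4.69 with a median of 1.49 and quartiles of 0.81 and 2.30. In neutrophils the same probes ran from -7.43 to 1.89 with a median of -2.21 and quartiles of -3.52 and -1.09. The median lay above 84.5% of all probes of the Ly6C+ array, above 83.7% of the CX3CR1+ array and above 59.0% of the neutrophil array. A typical one of these probes therefore had a dim neutrophil signal. It lay above the lowest values of that array but is not shown to be above background.

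Set by the dimmer of the macrophage values, 389 probes lay between 0 and 1, 370 between 1 and 2, 268 between 2 and 3, 97 between 3 and 4, and 16 above 4. The share of all probes bright in both macrophages that the rule took fell along this order, with 13.0%, 11.3%, 7.96%, 4.13% and 1.16%. At the top end, A_55_P2159575 had a log2 signal of 5.00 in Ly6C+ macrophages and 4.69 in CX3CR1+ macrophages, against -0.73 in neutrophils. A_51_P246317 had 5.20 in Ly6C+ macrophages and 4.65 in CX3CR1+ macrophages, against 1.65 in neutrophils. The second of these was bright on all 3 arrays and passed the rule at 8.01-fold in the dimmer macrophage, whereas the first stood 42.8-fold above neutrophils.

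The excess over neutrophils is given for the dimmer of the macrophages, so that it holds for both. Its median was 3.48 on the log2 scale, or 11.2-fold, with quartiles of 6.78-fold and 28.4-fold. The neutrophil signal was thus a median of 8.95% of the dimmer macrophage signal. How many of the neutrophil values lie above background is not known, so these are folds of the deposited signal and not of RNA. An excess of at least 10-fold was seen for 619 probes (54.3%), at least 20-fold for 370 (32.5%), at least 50-fold for 196 (17.2%) and at least 100-fold for 117 (10.3%). CX3CR1+ macrophages were the dimmer population for 996 probes and Ly6C+ macrophages for 144.

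The excess began at the threshold with no gap. The member nearest to it had log2 signals of 2.24 in Ly6C+ macrophages and 1.82 in CX3CR1+ macrophages, against -0.51 in neutrophils, an excess of 2.3222 where 5-fold is 2.3219. The nearest probe left out had 0.27 in Ly6C+ macrophages and 0.22 in CX3CR1+ macrophages, against -2.10 in neutrophils, an excess of 2.3217. Within 0.1 log2 of a limit of the rule there were 125 probes inside and 126 outside, and within 0.5 log2 there were 458 inside (40.2% of the 1140) and 828 outside. The count therefore marks a point on a continuous slope.

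How many of these probes were at the floor of the neutrophil array depended on where the floor is set. Within 0.5 log2 of its lowest value lay 52 of the 1140 (4.56%), beside 20.6% of all probes. Up to the 95th percentile of the 96 ERCC control rows on that array, at -2.68, lay 448 (39.3%), beside 55.3% of all probes, and up to the highest ERCC row, at -1.14, lay 844 (74.0%), beside 67.2%. The sources do not state whether ERCC RNA was added, so it is not known whether these rows mark background. The rule sets a ceiling but no lower limit on the neutrophil value, so these shares describe the probes and are not a test. The neutrophil values of the 52 nearest the lowest value ran from -7.43 to -6.96. The same 52 probes had a median of 1.13 in Ly6C+ macrophages, with a range of 0.03 to 3.26, and a median of 0.75 in CX3CR1+ macrophages, with a range of 0.04 to 2.86. For them the neutrophil value gives no exact fold, so a level 0.5 log2 above the lowest value of the array was used in its place. The dimmer macrophage signal was 125-fold or more above this level for each of the 52, with a median of 206-fold. The level was chosen here and is not a measured background. A higher background would make these folds smaller.

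The 2 probes with the largest excess were both of this kind. A_55_P1974687 had a log2 signal of 3.26 in Ly6C+ macrophages and 2.86 in CX3CR1+ macrophages, against -7.37 in neutrophils. It was at least 892-fold higher in the dimmer macrophage. A_52_P536494 had 3.15 in Ly6C+ macrophages and 2.64 in CX3CR1+ macrophages, against -7.36 in neutrophils. Its dimmer macrophage signal was 761-fold above the same level. Of the probes outside this band, the one with the largest excess had 3.11 in Ly6C+ macrophages and 2.95 in CX3CR1+ macrophages, against -6.58 in neutrophils. That neutrophil value is 0.85 above the lowest of the array and is not shown to be above background, so no fold is given. All 3 probes were thus bright in both macrophages and at or near the lowest values of the neutrophil array.

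At the other end, 95 probes (8.33%) had a neutrophil value above 0 and so passed this level on all 3 arrays. They had medians of 3.47 in Ly6C+ macrophages and 3.17 in CX3CR1+ macrophages, against 0.52 in neutrophils. Their median excess was 6.02-fold and the highest was 11.1-fold. The 993 probes between these ends (87.1%) had medians of 1.64 in Ly6C+ macrophages and 1.38 in CX3CR1+ macrophages, against -2.26 in neutrophils, and a median excess of 11.9-fold. The 52 probes within 0.5 log2 of the lowest neutrophil value, called the neutrophil floor here, were mostly among the dimmer ones: 32 had a dimmer macrophage value of 0 to 1, 15 a value of 1 to 2, and 5 a value of 2 to 3.

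As deposited, Ly6C+ and CX3CR1+ macrophages gave nearly the same signal for most of these probes. The difference between them was within 2-fold for 1120 of the 1140 probes (98.2%) and within 1.5-fold for 1054 (92.5%). These shares depend on the scaling. With each array centred on its median, the median difference over the 1140 was 0.65 log2, where 1.5-fold is 0.585. Most of them would then lie outside 1.5-fold. Over all 55681 probes 86.6% were within 2-fold, and over the other probes bright in both macrophages 99.0% were within 2-fold and 95.9% within 1.5-fold. Because the rule asks for a bright value in both arrays, agreement is partly built in, and the other bright probes, which meet the same demand, agreed no less closely. Agreement of the macrophages is thus not particular to the probes that separate them from neutrophils. Across the 1140 probes, which share the arrays and are not independent, Pearson's correlation of the log2 signals was 0.96 between the macrophages. Against neutrophils it was 0.50 for Ly6C+ and 0.53 for CX3CR1+ macrophages, over values that the rule itself limits. The other bright probes gave 0.98 between the macrophages, and 0.78 and 0.83 against neutrophils in the same order. All probes gave 0.98, 0.86 and 0.91.

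The small remaining difference ran toward Ly6C+ macrophages. Ly6C+ minus CX3CR1+ had a median of 0.23 on the log2 scale, or 1.17-fold, with quartiles of 0.09 and 0.38, and 996 probes (87.4%) were higher in Ly6C+ macrophages. The other bright probes had a median of 0.14, and 74.3% were higher in Ly6C+ macrophages. The size depended on the scaling: the median over the 1140 probes was 0.65 with each array centred on its median, 0.13 after quantile normalization and 0.08 when the E1A controls set the centre, and 99.0%, 73.7% and 66.1% of them were higher in Ly6C+ macrophages. The distance to the other bright probes was 0.09 with the deposited values, the same by construction with any shift of whole arrays, and 0.11 after quantile normalization. No spread between arrays is known against which 0.09 could be judged.

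This difference was much the same at every brightness. Its median was 0.24, 0.24, 0.22, 0.22 and 0.29 in the 5 bands of brightness from dim to bright, the last of 16 probes. It was 0.38 for the probes at the neutrophil floor, 0.23 for those between and 0.21 for those above 0 in neutrophils. Within 2-fold lay 92.3% of the floor probes, 98.6% of those between and 97.9% of those bright in neutrophils. The floor probes, for which neutrophils gave the least signal, were thus those on which the macrophages differed most, though they were also the dimmest in both macrophages.

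With the deposited scaling only 20 probes differed by more than 2-fold between the macrophages. Of the 1140, 1.67% were higher in Ly6C+ macrophages by 2-fold or more and 0.0877% were lower, beside 2.61% and 10.8% of all probes. At 5-fold there were 2 higher and 0 lower, beside 0.435% and 2.54% of all probes. A probe that is nearly dark in one macrophage cannot enter the set, so the low counts follow in part from the rule.

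A_51_P385099 differed most, with a log2 signal of 4.42 in Ly6C+ macrophages, against 0.87 in CX3CR1+ macrophages, and -3.58 in neutrophils. As deposited, its Ly6C+ signal was 11.8-fold the CX3CR1+ signal, which in turn exceeded the neutrophil signal by 4.45 on the log2 scale. A_55_P2021810 had 4.78 in Ly6C+ macrophages, against 2.27 in CX3CR1+ macrophages, and -1.02 in neutrophils, a difference of 5.72-fold between the macrophages. That both were highest in Ly6C+ macrophages and lowest in neutrophils follows from the rule and from how these probes were picked, so only the sizes are informative. The 19 probes more than 2-fold higher in Ly6C+ macrophages had medians of 3.40 in Ly6C+ macrophages, against 1.64 in CX3CR1+ macrophages, and -2.08 in neutrophils. At the neutrophil floor were 4 of the 20.

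In the other direction A_55_P2062084 was the only probe past 2-fold, with 0.07 in Ly6C+ macrophages, against 1.10 in CX3CR1+ macrophages, and -2.63 in neutrophils. It lay close to the lower limit of brightness in Ly6C+ macrophages and was 2.04-fold lower there. Next came A_30_P01033331, with 0.33 in Ly6C+ macrophages, against 1.05 in CX3CR1+ macrophages, and -2.00 in neutrophils, which is within 2-fold. With each array centred on its median Ly6C+ values rise by 0.42 relative to CX3CR1+ values, which brings the first of these within 2-fold as well. The same shift carries other probes past 2-fold on the Ly6C+ side. The 95th percentile of Ly6C+ minus CX3CR1+ over the 1140 was 0.64 as deposited, so more than 20 probes would then differ by more than 2-fold.

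Few probes passed the rule in one macrophage and clearly failed in the other. Asked of Ly6C+ macrophages whatever the CX3CR1+ value, 1549 probes met it (2.78% of all probes). Asked of CX3CR1+ macrophages whatever the Ly6C+ value, 1196 did (2.15%). The 1140 are in both, as 73.6% of the Ly6C+ probes and 95.3% of the CX3CR1+ probes. Of the 409 that passed in Ly6C+ macrophages only, 237 missed the 5-fold excess in CX3CR1+ macrophages, 110 missed the brightness and 62 missed both. However, 328 of the 409 (80.2%) were within 0.5 log2 of passing, and the median shortfall was 0.23. Of these 409, 66 (16.1%) were higher in Ly6C+ macrophages by 2-fold or more and 26 (6.36%) by 5-fold or more, beside 2.61% and 0.435% of all probes. Passing in only 1 macrophage favours such a difference. Of the 56 that passed in CX3CR1+ macrophages only, 43 (76.8%) were within 0.5 log2 of passing. In Ly6C+ macrophages 12 of them (21.4%) were lower by 2-fold or more and 1 (1.79%) by 5-fold or more, beside 10.8% and 2.54% of all probes. The unequal totals of the macrophages thus came mostly from probes close to a limit of the rule.

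The reverse set behaved differently. There were 1514 probes above 0 in neutrophils whose signal was lower by 5-fold or more in both macrophages. Their medians were -3.78 in Ly6C+ macrophages and -1.66 in CX3CR1+ macrophages, against 1.93 in neutrophils. Only 34.5% of them were within 2-fold between the macrophages, beside 86.6% of all probes. For 676 the Ly6C+ value was the lower one by 5-fold or more, as it was for 2.54% of all probes. Over the 1514 probes Pearson's correlation with neutrophils was 0.93 for CX3CR1+ and 0.36 for Ly6C+ macrophages, and 0.61 between the macrophages. The cause was not tested, and neither was the purity of the sorts. These probes are free to reach the floor of a macrophage array, which the 1140 are not, so the share of 34.5% and that of 98.2% come from unlike ranges and their difference was not tested.

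The names of the probes fall into 6 series by their first characters, whose content the files do not state. A_55 gave 521 of the 1140 probes (45.7%), A_51 294 (25.8%), A_52 142 (12.5%), A_30 133 (11.7%), A_66 42 (3.68%) and A_65 8 (0.702%). As a share of its own probes A_51 gave 4.17% and A_30 0.818%. This gap followed how many probes of a series were bright in both macrophages, 36.5% for A_51 and 9.14% for A_30. Of the bright probes, 11.4% of A_51 and 8.96% of A_30 were members, and the other series lay between 7.09% and 10.4%. Each series gave the same picture of agreement: the median difference between Ly6C+ and CX3CR1+ macrophages was 0.12 to 0.25, and 97.2% to 100% were within 2-fold. No A_30 probe and 8 A_51 probes were outside it.

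The number of probes depended on how the arrays were scaled, but nearly all of the 1140 stayed. When the arrays were centred on their medians, with brightness still taken above the 75th percentile, 1721 probes met the rule, and 1138 of the 1140 (99.8%) were among them. Centring on the median raises Ly6C+ macrophages by 0.91 and CX3CR1+ macrophages by 0.49 relative to neutrophils, so that a probe can lose its place only through brightness. The 2 that were lost had log2 signals of 0.55 and 0.71 in Ly6C+ macrophages and 0.0053 and 0.00037 in CX3CR1+ macrophages, against -4.20 and -5.13 in neutrophils. They lay at or under the exact 75th percentile of the CX3CR1+ array, which is 0.0053. The 583 probes gained had medians of 1.81 in Ly6C+ macrophages and 1.60 in CX3CR1+ macrophages, against -0.47 in neutrophils, with a deposited excess of 1.41 to 2.32.

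Where brightness after centring on the median is taken as a value above 0, that is above the median of the array, 3478 probes met the rule and all 1140 were among them. Quantile normalization gave 1238 probes with 1136 of the 1140, and centring on the E1A controls gave 3173 with 1138 of the 1140. The deposited scaling thus gave the fewest probes among these, apart from centring on the exact 75th percentile, which gave 1137. Over the same 1140 probes the median excess was 11.2-fold as deposited, 15.9-fold with centring on the median, 14.0-fold after quantile normalization and 26.0-fold when the E1A controls set the centre.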

How the data were processed

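Labelled cRNA of each sorted population was hybridised to 1 array. The table that the authors deposited holds a log2 signal for each of 55821 rows and array, with 0 missing. Per the methods, signals came from GeneSpring GX with the MAS 5.0 algorithm. An Affymetrix array is named there, although the IDs are of Agilent type. How background was corrected is not stated in the sources. No base is given for the logarithm. It was taken as 2, since at 5-fold 3382 probes then exceed neutrophils in Ly6C+ macrophages, the size of the list in the submitters' design text, against 5892 for a natural logarithm and 11050 for base 10. The centring was read from the 75th percentiles of the columns, which lie at 0.00.

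The 140 control rows were left out and 55681 probes kept, with no filter on dim values. Counts, medians and differences were computed with Python 3.11.15, numpy 2.4.6 and pandas 2.3.3, and the counting was checked on made-up arrays. The members, lists and limits were chosen with earlier results of these data known. Named probes have the largest excess over neutrophils, the highest dimmer macrophage value or the largest macrophage difference, 2 for each and direction. Gene lists and markers could not be used, because no table used here gives the gene of a probe. Alternatives covered scaling, fold, brightness, low values, the floor and the A_30 series.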

Additional observations from a re-analysis of the deposited data

How the results depend on the processing

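No paired analysis was possible because each population has 1 array. Of 13 alternatives for the number of shared bright macrophage probes, 6 stayed within 1.5 times of 1140. The others gave 1721 with centring on the median, 3478 with brightness above that median only, 3173 with E1A centring, 3451 at 2-fold, 619 at 10-fold, 381 with both macrophages above 2, and 2634 with no limit on brightness. The last 4 follow from the change of limit itself. So does the rise from 1721 to 3478, where the centring is the same and only the limit of brightness is lower. The share within 2-fold between macrophages was 93.6% of the 1721 probes found with centring on the median and 99.0% of the 3173 found with E1A centring. Of the 1140 as deposited, 92.5% agreed when 1.5-fold is asked. The share at the neutrophil floor was 3.02% of the 1721 probes found with centring on the median. In an alternative chosen after seeing the data, 39.3% of the 1140 lay up to the 95th percentile of 96 ERCC control rows in neutrophils (-2.68) and 74.0% up to the highest (-1.14). Whether ERCC RNA was added is not stated, so these rows may not mark background. The median excess over neutrophils was 3.13 to 3.60 under its 6 alternatives, but the scalings choose their own probes at the same 5-fold limit, which holds the median near it. Over the same 1140 probes it was 3.48 as deposited, 3.99 with centring on the median, 3.81 after quantile normalization and 4.70 with E1A centring. The floor of the neutrophil array limits the fold of at least 52 probes. Apart from changed limits, the cause was not tested.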
